A study of Mus musculus with 12 samples.

Results

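The response to interferon-β (IFN-β) was examined in dendritic cells (DCs) in which *Ppargc1b* had been knocked down, by setting 3 IFN-β-treated sh*Ppargc1b* libraries against 3 unstimulated sh*Ppargc1b* libraries. The members were these 6 of the 12 libraries of the series, taken by their labels for knockdown and treatment, and the comparison covered every gene with enough counts, 18228 of 55471 in the table. All cells were bone marrow-derived DCs of adult female C57BL/6 mice, grown with the cytokine GM-CSF, transduced with a retrovirus (the LMP vector) carrying a short hairpin RNA (shRNA) and a human CD8 reporter, and enriched on that reporter with magnetic beads. The sh*Ppargc1b* cells carried a hairpin against *Ppargc1b* and were left unstimulated or were given IFN-β for 6 h. The 6 other libraries came from cells with a hairpin against firefly luciferase (shControl), 3 unstimulated and 3 given IFN-β for 6 h, and they share no library with the sh*Ppargc1b* comparison. A hairpin lowers a transcript without removing the gene, and the labels do not say which hairpin sequence was used or whether the replicates were separate cultures, so the p-values measure the spread between these libraries, which may be technical.

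IFN-β is a type I interferon, a cytokine that cells release on sensing viral nucleic acid. It binds the receptor chains IFNAR1 and IFNAR2, whose kinases JAK1 and TYK2 phosphorylate STAT proteins, among them STAT2, which act with IRF9 in a factor that binds the interferon-stimulated response element (ISRE) in promoters. The genes so induced block viral replication, raise antigen presentation and include both amplifiers and brakes of the pathway itself. *Ppargc1b* encodes PGC-1β, a partner of transcription factors known for its part in mitochondrial metabolism, and DCs are the antigen-presenting cells that start T cell responses.

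Libraries of the sh*Ppargc1b* cells held 50.8 to 67.1 M (mega) counts unstimulated and 53.9 to 61.7 M with IFN-β. *Ppargc1b* stood at 18.6, 19.3 and 20.3 CPM (counts per 1 M counted reads, scaled between libraries) in the unstimulated and 19.6, 15.5 and 20.9 CPM in the IFN-β-treated sh*Ppargc1b* libraries. The shControl libraries had 33.4, 33.3 and 36.7 CPM without and 31.4, 23.6 and 28.4 CPM with IFN-β, so all 6 sh*Ppargc1b* libraries lay below all 6 shControl libraries. Within the knockdown cells *Ppargc1b* did not pass the test for IFN-β (log2 fold change -0.06 ± 0.11, SE, adjusted p = 0.71), and the treated and untreated libraries overlapped. In shControl cells *Ppargc1b* was called lower with IFN-β (-0.31 ± 0.10, adjusted p = 0.021), without overlap, and the difference between the 2 responses was not called. Its relative *Ppargc1a* was too low to be tested. The cells had high levels of *Itgax*, which encodes CD11c (1137 CPM unstimulated, mean of 3), of MHC class II genes such as *H2-Aa* (1164 CPM) and of the macrophage-associated *Lyz2* (6001 CPM) and *Csf1r* (1212 CPM), and markers of other lineages follow the results.

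IFN-β separated the libraries along the first principal component of the 6 sh*Ppargc1b* libraries, which took 66.1% of the variance. IFN-β-treated sh*Ppargc1b* replicate 2 stood apart from its group. Its counts differed from those of the others by a chi-square of 21.4 and 16.8 per gene, against 8.58 between those and 9.04 to 14.9 within the other groups, and it lay at -33.0 on the second component (10.6% of the variance), where the others lay at 23.1 and 9.01. Without it 7153 genes were called in place of 7760, the calls of *Irf3*, *Cxcr2* and *Xcr1* given here were lost, as was the interaction of *Inpp4a*, and the responses of *Sdha*, *Hadha* and *Inpp4a* passed. Of the 18228 genes tested, 7760 (42.6%) passed at an adjusted p of 0.05, of which 3895 (21.4% of those tested) were higher with IFN-β and 3865 (21.2%) lower. Rises and falls were near equal in number but not in size. At least 2-fold rises numbered 1029 and falls of that size 368, at least 4-fold rises 368 and falls 23, and at least 16-fold rises 78 and falls 0. The median log2 fold change was 0.52 among called rises and -0.42 among called falls. The genes that rose at least 2-fold took 3.20 ± 0.055% of all counts in the unstimulated and 10.6 ± 0.11% in the treated libraries (SD, n = 3 each), and those that fell that far went from 0.589 ± 0.017% to 0.227 ± 0.0107%. Both sets were picked by their change in these libraries, so the direction was fixed and the shares are a description of size. The split of calls rests on the scaling between libraries. With library totals alone in place of the trimmed mean of M-values (TMM), the median log2 fold change of all genes moved from -0.02 to -0.22 and the calls became 2340 higher and 7551 lower, so small falls are changes relative to the bulk of genes. For reference, the 3 treated and 3 untreated libraries did not overlap for 50.1% of all genes tested.

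**Figure D1:**
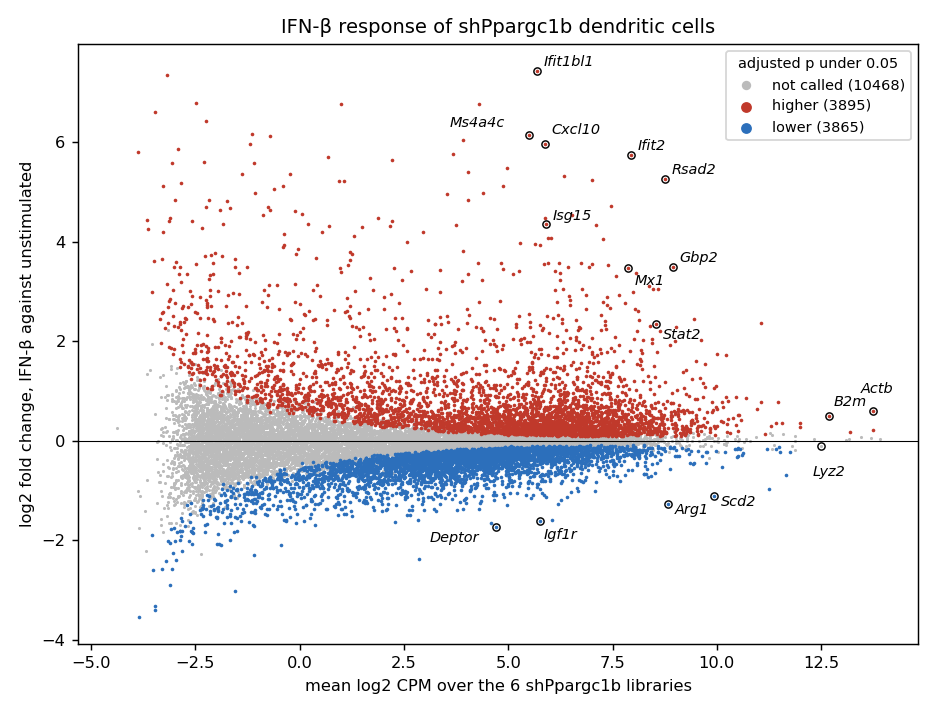
Each point is 1 of 18228 genes, with the mean log2 CPM over the 6 sh*Ppargc1b* libraries on the x axis and the log2 fold change for IFN-β against unstimulated on the y axis. Red and blue mark genes higher (3895) and lower (3865) at an adjusted p under 0.05, grey the rest, and the named rises reach 7.42 (*Ifit1bl1*) while named falls go no lower than -1.73 (*Deptor*).

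Promoter letters of some induced genes are shown here because the ISRE is the element through which the pathway is known to act. The ISRE was searched as GAAANNGAAA and its reverse complement TTTCNNTTTC on both strands of the 250 bases before each RefSeq start (GRCm38.p6), and the capitals mark the match within up to 30 bases on each side, written 5′ to 3′ in the direction of the gene. *Rsad2* encodes viperin, an antiviral enzyme (chr12:26456533-26456602, minus strand), *Cxcl10* a chemokine for activated T cells (chr5:92349063-92349132, minus strand), *Isg15* a ubiquitin-like protein (chr4:156200851-156200920, minus strand), *Gbp2* a guanylate-binding GTPase (chr3:142620574-142620643, plus strand), *Ifit1* a binder of foreign RNA ends (chr19:34640774-34640843, plus strand) and *Stat2* the interferon signal transducer (chr10:128270248-128270315, plus strand). 
*Rsad2*: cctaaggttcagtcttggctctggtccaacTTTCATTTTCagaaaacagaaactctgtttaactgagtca
*Cxcl10*: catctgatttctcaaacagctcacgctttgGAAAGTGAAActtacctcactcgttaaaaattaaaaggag
*Isg15*: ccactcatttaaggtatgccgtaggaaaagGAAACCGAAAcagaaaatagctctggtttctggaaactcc
*Gbp2*: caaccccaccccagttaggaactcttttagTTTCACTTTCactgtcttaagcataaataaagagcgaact
*Ifit1*: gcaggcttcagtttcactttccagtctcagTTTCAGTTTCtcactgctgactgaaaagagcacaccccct
*Stat2*: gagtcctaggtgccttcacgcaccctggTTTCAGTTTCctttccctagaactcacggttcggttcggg

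The second kind of element of the pathway, the gamma-activated site (GAS) that dimers of STAT proteins bind, was searched as TTCNNNGAA, which reads the same on both strands. *Tgtp2*, a GTPase of the IRG family (chr11:49064255-49064323, minus strand), and *Irf1*, a transcription factor (chr11:53769894-53769962, plus strand), are shown for this element. The *Tgtp2* letters also hold an ISRE match, left in lower case.
*Tgtp2*: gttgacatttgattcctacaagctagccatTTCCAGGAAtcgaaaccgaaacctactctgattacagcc
*Irf1*: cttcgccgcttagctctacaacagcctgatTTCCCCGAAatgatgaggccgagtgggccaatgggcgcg

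Promoters were found for 10376 of 12743 tested coding genes (81.4%; genes on chromosomes 18, M and Y left out), and 3.44% of them held the ISRE letters and 7.25% the GAS letters. Among all 32851 promoters of the table the shares were 2.98% and 7.02%. Among coding genes that rose at least 16-fold, 20 of the 45 with a promoter (44.4%) held the ISRE letters and 9 (20%) the GAS letters. Among coding genes called higher by less than 2-fold the ISRE share was 3.85% and the GAS share 7.65%. Among those called lower by less than 2-fold these shares were 2.37% and 6.92%. Fewer than 80% of the genes had a promoter in the other classes of response, so no share is given for them. These are descriptions of letters, and family members that lie side by side share some of them. *Ifit3* and *Ifit3b*, for instance, had the same 70 letters around their matches.

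Genes of the receptor and its signal chain rose, 9 of 9 tested, with a median log2 fold change of 0.42 (all genes: -0.02). With library totals alone 7 of them were higher and 1 lower. *Stat2* stood at 162, 159.9 and 177 CPM without and 857, 815 and 864 CPM with IFN-β, a log2 change of 2.35 ± 0.05 (SE, adjusted p = 1.14e-14). No treated library was under 4 times the highest untreated one. The kinase *Tyk2* (log2 change 0.83) and the receptor chains *Ifnar2* (0.42) and *Ifnar1* (0.35) rose less. Of the interferon regulatory factors, transcription factors that carry the response onward, 6 of 9 rose and 1 fell. *Irf7*, the factor that drives further interferon production, was at 63.1, 67.1 and 54.4 CPM and then 595, 638 and 588 CPM (3.30 ± 0.10, adjusted p = 5.45e-13), *Irf1* changed by 2.06, *Irf9* by 0.81 and *Irf8*, a factor of the myeloid lineage, by 0.68. *Irf3*, which acts at first infection, fell by 0.17 on the log2 scale, and *Irf4* (-0.11) did not pass the test. Brakes on the pathway were also among the rises, 8 of 12 on the list, or 4 with library totals alone, where 2 fell. *Usp18*, which removes ISG15 and blocks the receptor, rose from 37.6 ± 5.73 to 440.2 ± 4.07 CPM (SD, n = 3; log2 change 3.55 ± 0.10), and *Socs1*, an inhibitor of JAK kinases, from 26.9 ± 2.44 to 75.6 ± 3.34 CPM (1.49 ± 0.06). *Ptpn1*, a phosphatase, was the 1 member that fell (-0.25 ± 0.04).

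Sensors of nucleic acid rose together, 14 of 15 tested against 21.4% of all genes, and their median log2 change was 1.29. *Tlr3*, the endosomal receptor for double-stranded RNA, moved furthest, from 11.9, 13.5 and 12.96 to 186, 204 and 202 CPM (3.95 ± 0.08, adjusted p = 8.95e-15). The cytosolic RNA sensors *Ifih1* (2.65 ± 0.06), *Ddx58* (2.31 ± 0.07) and *Dhx58* (2.44 ± 0.05) rose by similar amounts, as did *Zbp1*, a sensor that starts cell death (2.79 ± 0.06). The DNA sensor *Cgas* rose by 1.29 and its adaptor *Sting1* by 0.45. *Mavs*, the mitochondrial adaptor of the RNA sensors, did not pass the test (-0.05 ± 0.05, adjusted p = 0.49). Of the wider Toll-like receptor list, 12 of 15 rose, *Cd14* fell by 0.19 on the log2 scale (a call lost in 4 of 19 alternatives), and *Tlr5* (-0.65) and *Tlr12* (0.10) did not pass.

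The IFIT genes, whose products bind viral RNA, had the highest median of the lists. All 6 tested rose, with a median log2 change of 5.53, and they lie side by side on chr19:34550694-34650009, a span of 99.3 kb (GRCm38). *Ifit2* was at 28.9, 30.9 and 42.6 CPM in the unstimulated and 1822, 1885 and 1778 CPM in the treated libraries (5.74 ± 0.17, adjusted p = 3.41e-13). *Ifit1bl1* was at 3.56, 3.36 and 4.92 CPM and then 714, 605 and 720.0 CPM (7.42 ± 0.14), the largest rise among the genes the naming rule allowed. *Ifit3* (5.31) and *Ifit3b* (6.05) are near-identical copies, and since only uniquely mapped reads were counted, their split is uncertain. The OAS genes, whose enzymes make short oligoadenylates on binding double-stranded RNA, rose in 8 of 8 tested on chromosome 5. *Oasl1* changed most, from 12.6 ± 1.37 to 280.0 ± 9.68 CPM (SD, n = 3; 4.47 ± 0.11).

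Of 24 single antiviral effectors, 22 rose. *Rsad2* went from 61.4, 70.6 and 79.5 to 2646, 2841 and 2565 CPM (5.25 ± 0.17, adjusted p = 8.89e-13), and its chromosomal neighbour *Cmpk2*, a nucleotide kinase, from 16.99, 20.9 and 24.9 to 760.1, 838 and 772 CPM (5.23 ± 0.15). For both, every treated library was above every untreated library by more than 16-fold. *Isg20*, an exonuclease, rose by 5.12 ± 0.07, the dynamin-like GTPases *Mx1* and *Mx2* by 3.47 ± 0.08 and 3.98 ± 0.11, and *Ifi44* by 4.06 ± 0.09. Restriction factors that were already high rose by less, among them *Samhd1*, which degrades deoxynucleotides (495 ± 25.2 to 1436 ± 34.2 CPM, SD, n = 3), the entry blocker *Ifitm3* (154 ± 10.4 to 545 ± 33.4 CPM) and the RNA editor *Adar* (113 ± 5.93 to 286 ± 4.90 CPM). *Ifitm1* did not pass (0.20 ± 0.14, adjusted p = 0.27). *Ifi27*, named for its induction by interferon, fell from 9.48, 9.73 and 8.78 to 5.39, 5.69 and 4.34 CPM (-0.86 ± 0.12, adjusted p = 2.49e-05), while the related *Ifi27l2a* rose (0.99 ± 0.05).

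The machinery that attaches ISG15 to proteins rose in 4 of 4 genes. *Isg15* was at 11.5, 13.4 and 15.1 and then 267, 285 and 264 CPM (4.34 ± 0.10, adjusted p = 2.21e-14), with the activating enzyme *Uba7* at 2.72, the conjugating enzyme *Ube2l6* at 2.82 and the ligase *Herc6* at 2.88 on the log2 scale. Of the ADP-ribosyltransferases and their partners 9 of 9 rose, led by *Parp11* (2.46 ± 0.06) and *Parp12* (2.41 ± 0.06), and of the TRIM ubiquitin ligases 16 of 18 rose, from *Trim30c* (3.82) down to *Trim35* (0.15, or -0.054 with library totals alone). *Trim28*, a co-repressor of retroelements, and *Trim27* fell by 0.44 and 0.28.

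Large GTPases that attack membranes around pathogens rose as gene clusters. All 11 tested guanylate-binding protein genes rose, 5 on chr3:142493978-142638008 and 6 on chr5:105014150-105346472, with a median log2 change of 3.44. *Gbp2* stood at 152, 137 and 157 CPM without and 1687, 1568 and 1722 CPM with IFN-β (3.48 ± 0.07, adjusted p = 9.45e-15). *Gbp4* had the largest change of the family (4.07 ± 0.07). Of 10 immunity-related GTPases 9 rose, the highest being *Iigp1* on chromosome 18 (1.43, 1.76 and 2.51 to 214, 178 and 239.5 CPM, 6.76 ± 0.16), and *Tgtp2*, outside the list, was at 2.55, 2.18 and 2.82 and then 108, 102 and 108 CPM (5.40 ± 0.09). *Irgc1* was the 1 member that did not pass (0.27 ± 0.13). The Schlafen genes, regulators of tRNA and of cell growth, rose in 7 of 7 on chr11:82951349-83215154, led by *Slfn4* (3.49 ± 0.11). The IFI200 genes, whose products sense DNA, rose in 11 of 11 tested on chr1:173468485-174031810, led by *Ifi208* (4.69 ± 0.356 to 209 ± 6.06 CPM, SD, n = 3; 5.47 ± 0.15). The MS4A membrane proteins rose in 8 of 8 on chr19:11067471-11604849, led by *Ms4a4c* (5.43 ± 1.08 to 382 ± 34.96 CPM; 6.14 ± 0.15). Members of these families are close in sequence, so single values may be low where reads map to more than 1 copy.

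**Figure D2:**
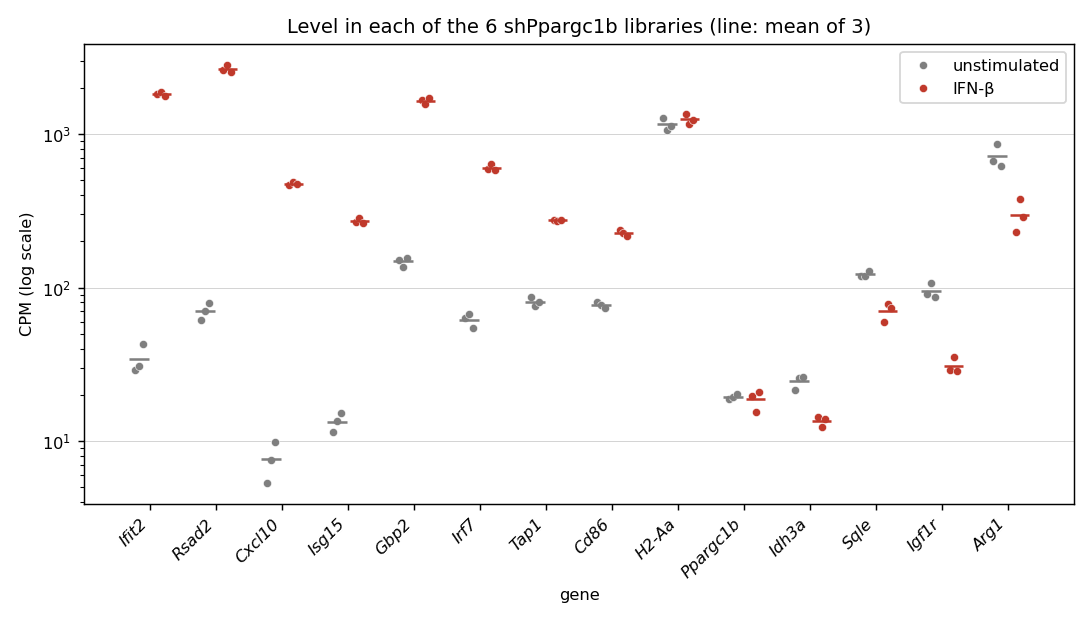
CPM on a log axis of 14 genes in each of the 6 sh*Ppargc1b* libraries, with grey points for unstimulated, red points for IFN-β-treated and a line at each mean of 3. For *Ifit2*, *Rsad2*, *Cxcl10*, *Isg15*, *Gbp2*, *Irf7*, *Tap1* and *Cd86* the 3 treated libraries sit above the 3 untreated ones, for *H2-Aa* and *Ppargc1b* the groups overlap, and for *Idh3a*, *Sqle*, *Igf1r* and *Arg1* the treated libraries sit below.

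Antigen presentation was examined for both MHC classes. For MHC class I, which shows peptides from inside the cell to CD8+ T cells, 24 of 24 genes of the molecules and of peptide loading rose, with a median log2 change of 1.23. *Tap1*, a subunit of the peptide transporter, was at 86.3, 75.4 and 80.99 CPM and then 276, 272 and 275 CPM (1.76 ± 0.05, adjusted p = 3.22e-13). The immunoproteasome subunits *Psmb10* (1.99 ± 0.06), *Psmb9* (1.67 ± 0.05) and *Psmb8* (1.07 ± 0.04) and the class I transactivator *Nlrc5* (2.25 ± 0.06) rose as well. The heavy chain genes *H2-K1* and *H2-D1* were high before treatment and rose by 0.69 and 0.51, and the light chain *B2m* rose from 5596 ± 380.1 to 7870.4 ± 167 CPM (SD, n = 3; 0.49 ± 0.05). For MHC class II, which shows peptides taken up from outside, 2 of 10 genes rose, close to the 21.4% of all genes that did, and 0 fell. These were *H2-Oa* (0.27 ± 0.08) and *H2-DMa* (0.22 ± 0.07), and each call was lost in 4 of 19 alternatives, including library totals alone. *H2-Aa* was at 1279, 1075 and 1139 CPM without and 1349.6, 1169 and 1238 CPM with IFN-β (0.11 ± 0.08, adjusted p = 0.35), and its transactivator *Ciita* at 97.5 ± 11.6 and 98.7 ± 13.9 CPM (0.02 ± 0.11). With a block for the runs of library codes 6 of these 10 genes were called higher.

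Of the costimulatory and checkpoint ligands, 12 of 14 rose. *Cd40*, the receptor for T cell help, stood at 5.57, 7.09 and 7.66 and then 59.1, 64.9 and 67.4 CPM (3.23 ± 0.10, adjusted p = 4.53e-13), and *Cd86*, a ligand of CD28, at 80.1, 76.7 and 73.5 and then 236, 226 and 218 CPM (1.56 ± 0.04, adjusted p = 1.05e-13). *Cd274*, the gene of the inhibitory ligand PD-L1, rose from 551, 571 and 507 to 1201, 1279 and 1162 CPM (1.16 ± 0.06), and *Cd80* by 0.36. Activating and inhibitory ligands thus both moved up. *Havcr2*, the gene of the inhibitory receptor TIM-3, was the 1 member that fell (14.3 ± 1.55 to 9.73 ± 1.29 CPM, SD, n = 3; -0.56 ± 0.10), and *Tnfsf9* did not pass. *Ccr7*, the receptor that guides DCs to lymph nodes, rose from 133, 127 and 123 to 238, 187 and 199 CPM (0.70 ± 0.07, adjusted p = 6.54e-07).

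Among secreted proteins, 11 of 18 tested chemokine genes and 17 of 20 cytokine genes rose, the cytokines with 1 fall. With library totals alone 11 cytokine genes were higher and 3 lower. Among the chemokines, the ligands of CXCR3, which draw activated T cells, had the largest rises. *Cxcl10* was at 5.32, 7.53 and 9.82 CPM without and 468, 488 and 472 CPM with IFN-β (5.96 ± 0.21, adjusted p = 2.58e-12), *Cxcl9* at 0.550, 0.731 and 0.663 and 33.4, 23.4 and 41.5 CPM (5.64 ± 0.21), and *Cxcl11* at 0.238, 0.0731 and 0.235 and 19.05, 20.6 and 19.2 CPM (6.76 ± 0.23). The monocyte chemokines *Ccl2* (1.68 ± 0.13), *Ccl7* (2.35 ± 0.18) and *Ccl12* (4.47 ± 0.24) and the T cell chemokine *Ccl5* (1.56 ± 0.09) also rose. Neutrophil chemokines did not rise, as *Cxcl2* fell by 0.33 on the log2 scale (a call lost in 8 of 19 alternatives, DESeq2 among them) and *Cxcl1* (-0.36) and *Cxcl3* (-0.08) not passing. Of the cytokines, *Tnfsf10*, the death ligand TRAIL, changed most (1.34, 1.99 and 1.85 to 98.8, 89.9 and 97.04 CPM, 5.77 ± 0.13, adjusted p = 1.71e-14). *Il27* (3.80 ± 0.17), *Il15* (1.94 ± 0.06) with its presenting receptor *Il15ra* (2.51 ± 0.06), and the IL-18 antagonist *Il18bp* (1.84 ± 0.07) rose too. *Ifnb1* itself was near the detection limit, at 0, 0.0878 and 0.0138 CPM and then 0.296, 0.420 and 0.424 CPM. The inflammatory cytokine *Il1b* fell, from 122, 119 and 114 to 77.2, 95.6 and 81.7 CPM (-0.48 ± 0.08, adjusted p = 2.60e-04), while its antagonist *Il1rn* rose from 1646, 1748 and 1526 to 2485, 3219 and 2684 CPM (0.77 ± 0.09, adjusted p = 4.88e-06). *Il6* (3.97 ± 0.0940 to 10.6 ± 0.924 CPM, SD, n = 3; 1.42 ± 0.12) and *Il12b* (1.87 ± 0.428 to 2.88 ± 0.329 CPM; 0.62 ± 0.23, adjusted p = 0.041) rose from low levels. *Tnf* rose slightly (152 ± 10.1 to 181 ± 16.7 CPM; 0.25 ± 0.07).

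Of 5 Fc gamma receptor genes, whose products bind antibody, 3 rose and 2 fell. The activating Fc gamma receptors *Fcgr1* (40.7, 46.1 and 52.2 to 281, 282 and 306 CPM, 2.64 ± 0.09) and *Fcgr4* (4.86, 5.40 and 4.43 to 42.6, 49.4 and 43.04 CPM, 3.20 ± 0.11) and the shared signalling chain *Fcer1g* (0.36 ± 0.05) rose. The inhibitory *Fcgr2b* (817 ± 60.7 to 592 ± 59.2 CPM, SD, n = 3; -0.47 ± 0.07) and, by a small amount, the activating *Fcgr3* (-0.15 ± 0.05) fell. *Siglec1*, the sialic acid receptor that marks interferon-exposed myeloid cells, rose from 47.2 ± 6.80 to 231 ± 24.5 CPM (2.29 ± 0.09). Of 13 chemokine receptor genes, 4 rose and 4 fell, against 21.4% and 21.2% of all genes. With library totals alone 2 were higher and 7 lower. The 4 falls were *C5ar1*, *Cxcr2*, *Cx3cr1* and, furthest, *Ackr3*, a decoy receptor (6.82 ± 0.987 to 2.81 ± 0.761 CPM; -1.27 ± 0.22).

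Genes of inflammasomes and cell death rose in 15 of 22. *Casp4* (2.27 ± 0.05), which senses bacterial lipopolysaccharide in the cytosol, *Mlkl* (2.22 ± 0.05), the executioner of necroptosis, and *Casp1* (1.52 ± 0.05) were among the larger rises, and *Daxx*, an apoptosis regulator, led the list (2.52 ± 0.05). *Pycard*, the adaptor that links sensors to caspase-1, was at 69.6, 67.8 and 70.1 CPM and then 144, 138 and 146 CPM (1.04 ± 0.04, adjusted p = 5.03e-12). *Nlrp3* did not pass (0.13 ± 0.06, adjusted p = 0.089), and the survival gene *Bcl2* fell (-0.58 ± 0.06). NF-κB subunits and inhibitors changed in small steps, 12 of 13 higher with a median of 0.32 and none by 2-fold, and 7 were still called higher with library totals alone. Of 20 lysosomal genes 13 rose and 0 fell, from *Npc2*, a cholesterol carrier (0.84 ± 0.04), to *Npc1* (0.12 ± 0.04, or -0.084 with library totals alone), against 9 higher and 6 lower with library totals alone.

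**Figure D3:**
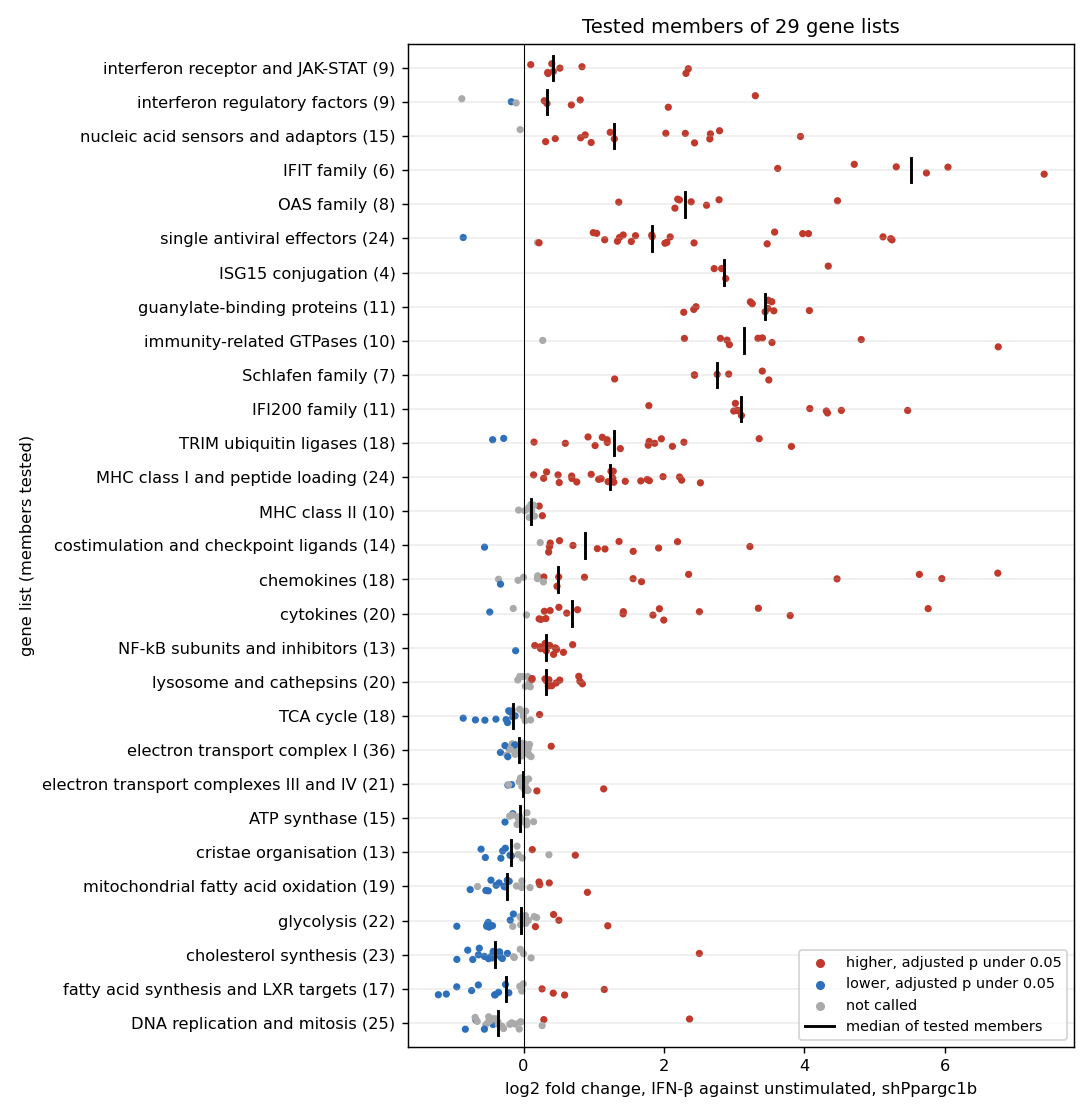
Each point is the log2 fold change for IFN-β in sh*Ppargc1b* cells of 1 tested member of 29 gene lists, red where higher and blue where lower at an adjusted p under 0.05 and grey otherwise, with a black bar at each list's median. Medians of the antiviral and MHC class I lists lie to the right of 0, though single antiviral members such as *Ifi27* (-0.86) lie to its left. MHC class II and the electron transport lists lie around 0. The cholesterol list (median -0.41) lies to the left of 0 except for *Ch25h* (2.50) and genes that were not called.

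Genes of the electron transport chain changed by small amounts. Of 36 complex I genes 1 rose and 6 fell, of 21 genes of complexes III and IV 2 rose and 2 fell, and of 15 ATP synthase genes 0 rose and 2 fell, shares of 19.4%, 19.05% and 13.3% called against 42.6% of all genes. The median log2 changes were -0.07, -0.01 and -0.05, and with library totals alone 26, 18 and 13 of these genes were called lower. The 6 falls in complex I were 1, 2 and 3 without sh*Ppargc1b* unstimulated replicates 2 and 3 and IFN-β replicate 1, and those in complexes III and IV were 0 or 1 without each of 5 single libraries in turn. The exception was *Cycs*, the gene of cytochrome c, which carries electrons and, once released, starts apoptosis. It stood at 20.1, 22.4 and 20.96 CPM without and 47.2, 45.5 and 47.5 CPM with IFN-β (1.14 ± 0.06, adjusted p = 2.01e-10), with every treated library above every untreated one. Of the subunits of succinate dehydrogenase, *Sdhb* rose (44.99 ± 2.16 to 52.7 ± 2.41 CPM, SD, n = 3; 0.23 ± 0.06), *Sdhd* fell (67.3 ± 1.84 to 58.7 ± 1.13 CPM; -0.20 ± 0.04), and *Sdha* (0.10 ± 0.04) and *Sdhc* (-0.00 ± 0.05) did not pass.

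The TCA cycle had more falls, 10 of 18 genes against 1 rise (16 and 0 with library totals alone). Called were 61.1% of its genes, against 42.6% of all genes. *Idh3a*, the catalytic subunit of NAD-dependent isocitrate dehydrogenase, was at 21.5, 25.8 and 26.1 CPM and then 14.3, 12.3 and 13.8 CPM (-0.86 ± 0.08, adjusted p = 4.49e-07). Fumarase *Fh1* (19.8 ± 1.78 to 12.3 ± 1.19 CPM, SD, n = 3; -0.69 ± 0.09) and *Idh2* (23.3 ± 1.37 to 15.9 ± 1.94 CPM; -0.55 ± 0.08) followed. *Cs*, the citrate synthase at the entry of the cycle, did not pass (-0.01 ± 0.04). *Acod1*, which turns the cycle intermediate cis-aconitate into itaconate, rose from 676, 659 and 647 to 2301, 2119 and 2127 CPM (1.72 ± 0.05, adjusted p = 2.88e-13). The groups did not overlap for *Idh3a* or *Acod1*, which moved in opposite directions.

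Of 19 genes of mitochondrial fatty acid oxidation 10 fell and 4 rose, 73.7% called against 42.6% of all genes. With library totals alone 14 were lower and 2 higher. *Hadh*, a dehydrogenase of the spiral, fell from 19.7 ± 0.854 to 11.7 ± 1.03 CPM (SD, n = 3; -0.76 ± 0.08), while *Acadl*, the long-chain dehydrogenase, rose from 61.5 ± 1.42 to 116 ± 7.17 CPM (0.91 ± 0.05) and *Cpt1a*, the carnitine transferase that admits fatty acids, was at 75.8, 72.6 and 74.5 CPM and then 103, 89.9 and 94.8 CPM (0.37 ± 0.05, adjusted p = 1.94e-05). *Hadha* did not pass (0.09 ± 0.05). Of 13 genes that shape the cristae 7 fell and 2 rose, 69.2% called against 42.6% of all genes. With library totals alone 10 were lower and 1 higher. The falls included *Chchd3* (-0.19 ± 0.05). The rises were *Apool* (0.74 ± 0.06) and *Immt* (0.12, which turned to -0.079 with library totals alone), while *Opa1* did not pass (-0.08 ± 0.03). *Mfn2*, a fusion protein, fell by 0.19 and *Dnm1l*, which divides mitochondria, did not pass (0.07 ± 0.04). Among the PGC-1 partners, *Tfam* and the nuclear receptor *Esrra* rose by 0.23 and 0.15, both calls lost with library totals alone, where *Esrra* turned to -0.057, and *Pprc1* (-0.42 ± 0.10), *Nrf1* (-0.22) and *Pparg*, a lipid-sensing nuclear receptor (10.97 ± 0.834 to 5.71 ± 0.758 CPM, SD, n = 3; -0.94 ± 0.10), fell.

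Most genes tested for lipid synthesis fell. Of 23 tested genes for cholesterol synthesis and its control 17 fell and 1 rose, with a median log2 change of -0.41. *Sqle*, which makes squalene epoxide, was at 119.7, 119 and 127 CPM and then 59.7, 77.7 and 73.7 CPM (-0.79 ± 0.08, adjusted p = 1.37e-06), and *Dhcr7*, the last enzyme of the route, at 31.1, 32.3 and 28.3 and 13.9, 18.01 and 15.5 CPM (-0.95 ± 0.08, adjusted p = 1.61e-07). The gene that rose, *Ch25h*, does not make cholesterol but oxidises it to 25-hydroxycholesterol, and it went from 3.54, 5.34 and 5.94 to 22.3, 33.9 and 28.5 CPM (2.50 ± 0.17, adjusted p = 9.39e-09). Of 17 genes for fatty acid synthesis and targets of the sterol receptor LXR 10 fell, including *Scd2*, a desaturase (1446 ± 75.8 to 674 ± 74.9 CPM; -1.10 ± 0.08), *Fasn* (-0.95 ± 0.11) and *Elovl6* (-1.21 ± 0.15), and 4 rose, including *Nr1h3*, the gene of LXRα (1.15 ± 0.09), and the cholesterol exporter *Abcg1* (0.59 ± 0.06). *Srebf1*, which drives fatty acid synthesis, did not pass (-0.05 ± 0.04), and *Srebf2*, which drives cholesterol synthesis, fell (-0.23 ± 0.05).

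**Figure D4:**
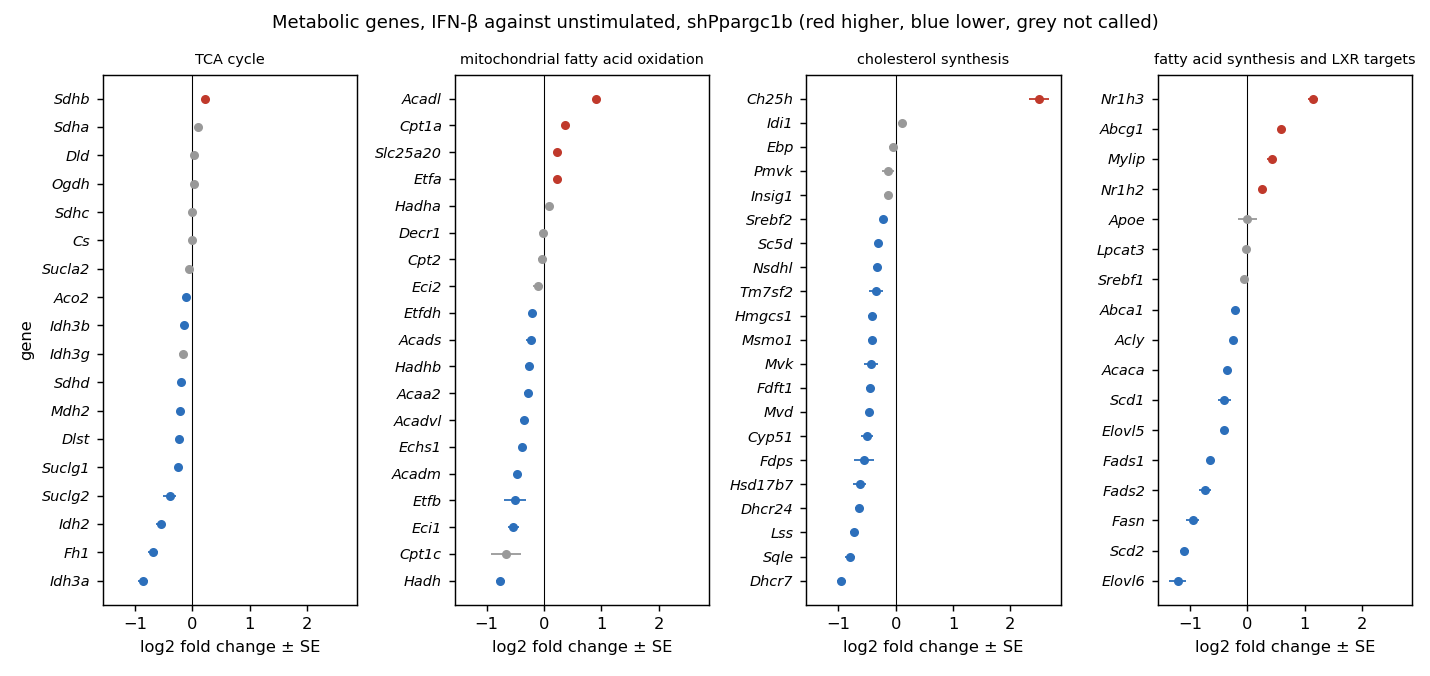
Log2 fold change for IFN-β in sh*Ppargc1b* cells with its SE for tested genes of 4 metabolic lists, red where higher, blue where lower at an adjusted p under 0.05 and grey where not called. The TCA cycle reaches down to *Idh3a* (-0.86), fatty acid oxidation runs from *Hadh* (-0.76) to *Acadl* (0.91), and the cholesterol list lies below 0 apart from *Ch25h* and genes that were not called.

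Of 22 glycolysis genes 4 rose and 8 fell, 54.5% called against 42.6% of all genes. With library totals alone 2 were higher and 15 lower. The rises became 7 and 2 without IFN-β-treated sh*Ppargc1b* replicates 1 and 3, and the falls became 5 without IFN-β replicate 1 or unstimulated replicate 1. *Hk3*, a myeloid hexokinase, rose (107 ± 6.23 to 247 ± 13.6 CPM, SD, n = 3; 1.20 ± 0.05), as did *Pfkfb3* (0.43 ± 0.06). The glucose transporter *Slc2a1* fell, from 837, 737 and 727 to 483, 664 and 548 CPM (-0.44 ± 0.09, adjusted p = 0.001), *Gpi1* fell by 0.53, and *Ldha* did not pass (0.07 ± 0.06). Of 11 enzymes of itaconate, arginine and tryptophan 6 rose and 1 fell. *Nos2*, the inducible nitric oxide synthase, was at 111, 78 and 82.7 CPM without and 242, 398 and 294 CPM with IFN-β (1.78 ± 0.18, adjusted p = 9.92e-07), while *Arg1*, which breaks arginine down to ornithine, was at 667, 865 and 621 and 230.3, 379 and 289 CPM (-1.26 ± 0.18, adjusted p = 3.29e-05). The groups did not overlap for either gene. *Arg2*, the gene of the other arginase, rose from a low level (4.68 ± 0.951 to 7.26 ± 0.606 CPM, SD, n = 3; 0.64 ± 0.14), and so did the more abundant *Ass1*, which remakes arginine (589 ± 4.87 to 789.9 ± 13.6 CPM; 0.42 ± 0.05). Of 17 antioxidant genes 4 rose, near the 21.4% of all genes that did, and 7 fell, or 12 with library totals alone. The rises included *Sod2* (0.47 ± 0.05) and *Sqstm1* (0.45 ± 0.05). The falls were led by the glutathione synthesis subunit *Gclm* (271 ± 10.04 to 154 ± 16.1 CPM; -0.82 ± 0.06).

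The 15 largest falls among genes with a mean log2 CPM of at least 3 were of genes with varied roles. *Deptor*, an inhibitor of mTOR, was at 44.5, 50.9 and 48.01 CPM unstimulated and 16.97, 12.2 and 14.1 CPM treated (-1.73 ± 0.10, adjusted p = 6.97e-10). *Igf1r*, the receptor for insulin-like growth factor, was at 91.2, 106 and 86.7 and 29.1, 35.3 and 28.4 CPM (-1.62 ± 0.10, adjusted p = 3.15e-09). *Kcnn3*, a potassium channel (-1.65), *Mthfd1*, a one-carbon enzyme (-1.40), *Prkag2*, a subunit of AMPK (-1.39), *Cad*, which starts pyrimidine synthesis (-1.38), *Rgs11* (-1.38), *B3galt2* (-1.37), *Utp20*, a ribosome assembly factor (-1.28), *Tanc2* (-1.28), *Nat10*, an RNA acetyltransferase (-1.27), *Tacc2* (-1.26), *Pald1* (-1.24) and *Ndc1*, a nuclear pore protein (-1.23), completed the 15 with *Arg1*. In all 15 the 3 treated libraries lay below the 3 untreated ones, as the rule for naming them required. Of 25 genes of DNA replication and mitosis 24% were called, against 42.6% of all genes. Among the 25, 4 fell, *Mcm2* (-0.68), *Mcm3* (-0.43), *Bub1* (-0.56) and *Myc* (-0.83 ± 0.12). There were 2 rises, *Ccnd1* (34.6 ± 9.59 to 179 ± 16.8 CPM, SD, n = 3; 2.37 ± 0.15) and *Pcna* (0.29), and 19 did not pass. Across the alternatives 4 to 18 of the 25 were called lower, the most when the filter on low counts was dropped. They were 7, 7 and 9 without sh*Ppargc1b* unstimulated replicates 1 and 2 and IFN-β replicate 3.

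Setting the same contrast in shControl cells beside these values, 8793 genes (48.2%) were called there, 4312 (23.7%) higher and 4481 (24.6%) lower. Of the 7760 calls in sh*Ppargc1b* cells 87.8% were called the same way in shControl, and of the shControl calls 77.5% were called the same way in sh*Ppargc1b*. Among 6813 genes called in both, 6811 had the same direction. Across all 18228 genes the log2 fold changes of both contrasts had a Pearson r of 0.868 and a Spearman rho of 0.794, as a description, since genes are not replicates. The 1029 genes that rose at least 2-fold in sh*Ppargc1b* cells had a median log2 change of 1.63 there and 1.84 in shControl, and 742 of them rose more in shControl. The 368 genes that fell that far had a median of -1.23 in sh*Ppargc1b* and -1.24 in shControl cells.

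The difference between the responses was tested as the interaction (the IFN-β change in sh*Ppargc1b* minus that in shControl), and 133 genes (0.73%) had an adjusted p under 0.05, 122 negative (0.669%) and 11 positive (0.0603%). The count changed with single libraries. It was 36 and 61 without shControl unstimulated replicates 3 and 1, 61 and 76 without shControl IFN-β replicates 2 and 3, 63 and 59 without sh*Ppargc1b* unstimulated replicates 2 and 3, and 77 and 271 without sh*Ppargc1b* IFN-β replicates 3 and 2. The positive calls numbered 56 without IFN-β-treated sh*Ppargc1b* replicate 2, 86 with the block for runs of library codes, 84 with DESeq2 and 103 when the filter on low counts was dropped. Of the 1029 genes with a 2-fold rise in sh*Ppargc1b* cells, 82 had a called interaction, and all of these were negative, so the rise was smaller in the knockdown cells. Their median log2 rise was 1.80 in sh*Ppargc1b* and 2.42 in shControl cells. In 77 of the 82 the unstimulated mean was higher in sh*Ppargc1b* than in shControl, and in 68 the treated mean was lower, with both in 63. These genes were picked by the same contrasts, so their levels are a description.

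**Figure D5:**
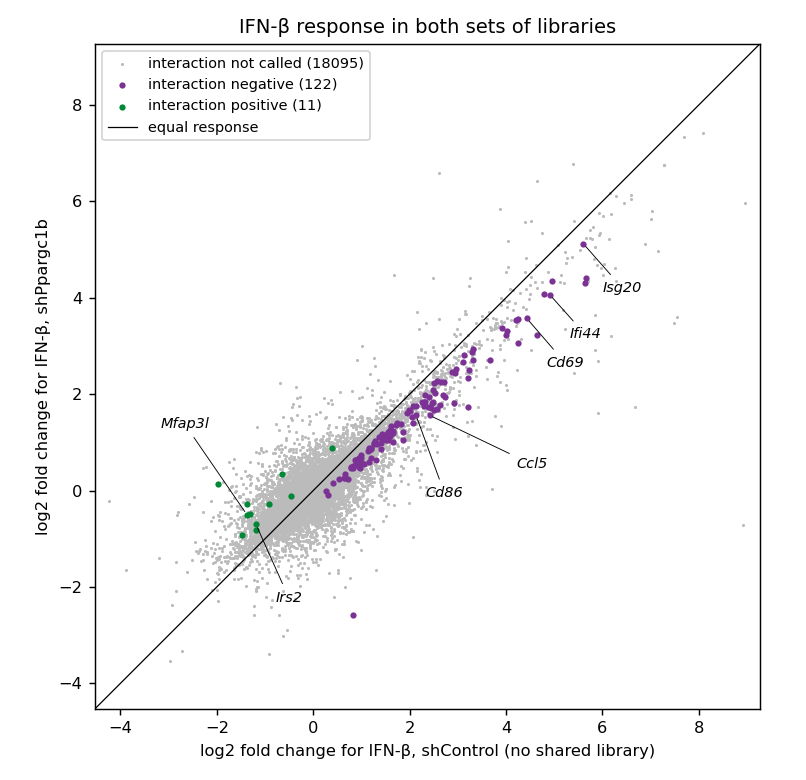
Each point is 1 of 18228 genes, with the log2 fold change for IFN-β in shControl cells on the x axis and in sh*Ppargc1b* cells on the y axis, purple where the interaction was called negative (122), green where called positive (11) and grey otherwise. The line marks equal responses, and most purple points lie below it on the right, among induced genes such as *Cd69*, *Ifi44* and *Isg20*.

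Named genes show both ways in which a rise can be smaller. *Tent5c*, an RNA polymerase that extends poly(A) tails, was at 39.4, 36.3 and 38.1 CPM and then 119, 126 and 120.5 CPM in sh*Ppargc1b* and at 25.2, 23.6 and 23.02 and then 137, 151 and 138 CPM in shControl (interaction -0.88 ± 0.07, adjusted p = 5.19e-05). It thus started higher and ended lower in the knockdown cells. *Cd69*, an early activation marker, was at 15.7, 19.3 and 18.5 and 199, 227 and 212 CPM in sh*Ppargc1b* and at 12.5, 13.2 and 10.3 and 238, 288 and 251 CPM in shControl (-0.86 ± 0.13, adjusted p = 0.0091). *Cd86* was at 41.2, 40.3 and 41.8 CPM without and 181, 181 and 178 CPM with IFN-β in shControl, so in sh*Ppargc1b* it was higher both before and after, and its change was smaller (-0.57 ± 0.06, adjusted p = 7.43e-04). *Ccl5* (-0.85 ± 0.13) and *Tnfsf4*, a T cell costimulator (-0.80 ± 0.12), had the same pattern, with unstimulated means of 62.3 against 22.5 CPM and 32.6 against 9.45 CPM in sh*Ppargc1b* and shControl. *Ifi44* (-0.85 ± 0.12) and *Cd40* (-0.77 ± 0.14) ended near the same treated mean in both (637 against 652 CPM, and 63.8 against 64.2 CPM) from a higher start in sh*Ppargc1b*. *Il15ra* (-0.73 ± 0.09), *Tagap* (-0.79 ± 0.13), *Acod1* (-0.66 ± 0.07), *Irf7* (-0.72 ± 0.14), *Isg15* (-0.62 ± 0.13) and *Isg20* (-0.48 ± 0.10) were also called negative.

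Of the 7 positive interactions that the naming rule allowed, 6 were falls, or a value below 0, that were shallower in the knockdown cells. *Mfap3l* was at 17.4, 17.5 and 14.5 CPM and then 12.2, 12.7 and 10.1 CPM in sh*Ppargc1b* and at 17.3, 15.3 and 14.6 and 5.72, 6.35 and 6.09 CPM in shControl (0.88 ± 0.14, adjusted p = 0.012). *Irs2*, an insulin receptor substrate, fell in both, by 0.70 in sh*Ppargc1b* and 1.19 in shControl (0.49 ± 0.08, adjusted p = 0.0094). *Arhgap26* (0.82 ± 0.15), *Fam43a* (0.57 ± 0.09), *Ivns1abp* (0.36 ± 0.07) and *Inpp4a* (0.35 ± 0.07) were of this kind, and *Inpp4a* did not pass the test for IFN-β in sh*Ppargc1b* cells. *Fabp4*, a lipid chaperone, was the 1 named gene that rose more in the knockdown cells (23.01 ± 1.58 to 42.3 ± 3.44 CPM against 50.8 to 66.6 CPM in shControl; 0.49 ± 0.09, adjusted p = 0.025). No TCA cycle, electron transport, ATP synthase, cristae, fatty acid oxidation or cholesterol gene on the lists had a called interaction, which does not show that those responses were alike. For *Ppargc1b* itself the interaction was 0.25 ± 0.15 (adjusted p = 0.62).

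Markers of other cell types that such a culture can hold are given for comparison. Of all genes tested 42.6% were called, 21.4% higher and 21.2% lower. Of 10 neutrophil-like markers 0 rose and 1 fell (*Cxcr2*), with summed levels of 91.96 to 162 CPM unstimulated and 88.7 to 166 CPM treated. Of 8 eosinophil-like markers 0 were called (71.3 to 109 and 67.5 to 121 CPM), of 6 mast cell or basophil-like markers 2 fell (*Kit* and *Gata2*; 22.1 to 25.7 and 12.8 to 21.1 CPM), and of 4 tested lymphocyte-like markers 1 rose (*Cd8a*; 1.13 to 1.32 and 1.92 to 2.74 CPM). The sums did not overlap between treated and untreated libraries for the mast cell or basophil-like list, which was lower with IFN-β. They also did not overlap for the lymphocyte-like, plasmacytoid-like and dendritic-like lists, which were higher. Plasmacytoid-like sums were 185 to 208 CPM unstimulated and 408 to 421 CPM treated, and dendritic-like sums 1328 to 1361 and 1459 to 1478 CPM. The part of these lists in the results was not tested. All 7 erythroid-like markers were too low to test. Of 10 macrophage-like markers 5 rose, among them *Fcgr1* and *Mertk* (0.85 ± 0.05), and 1 fell (*Cd14*), while *Lyz2*, *Csf1r* and *Adgre1* did not pass. Of 5 plasmacytoid-like markers 4 rose, among them *Bst2* (2.02), which is itself an antiviral gene on another list. Of 10 dendritic-like markers 3 rose (*Ccr7*, *Dpp4* and *Xcr1*, at a mean of 0.271 CPM treated), and *Itgax*, *Zbtb46*, *Flt3*, *Clec9a* and *Batf3* did not pass. In such bulk libraries fewer cells of a type and less RNA per cell cannot be told apart.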

How the data were processed

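RNA of 12 libraries was depleted of ribosomal RNA and sequenced in pairs. The authors deposited raw gene counts, made per their processing notes with Trim Galore 0.6.0 and STAR 2.7.8a on GRCm38 (mm10). The strand setting is not given in the sources used here. All 12 libraries were fitted with edgeR 4.0.16 (R 4.3.3) with 1 mean for each of 4 groups, TMM scaling, a filter on low counts (filterByExpr, minimum 10) and the quasi-likelihood F-test, and p-values were Benjamini-Hochberg adjusted over 18228 genes. Fold changes carry a SE (log2 scale), levels are CPM, and every adjusted p is from this test. The genes, gene lists and comparisons were chosen with earlier results of these data known. Named were the 15 largest rises and falls above a mean log2 CPM of 3 without overlap between groups, up to 8 interactions each way, list members (the extremes, the highest and those a sentence needed) and genes the study names. Other named genes were chosen after their values were seen. The fit was tested on simulated data, where over 17894 genes 98% and 78% of genes raised by 1 and 0.5 log2 units and 92% and 68% of those lowered so were recovered in the sh*Ppargc1b* comparison, and 86%, 48%, 82% and 44% for the interaction. Promoter sequences came from RefSeq, and gene positions from the GENCODE annotation of GRCm38. Alternatives were another scaling, DESeq2 1.42.0, other filters, fewer libraries and a block for runs of 4 library codes. A few genes on the lists are not reported here by name.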

Additional observations from a re-analysis of the deposited data

Results flagged for a closer look

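The response to IFN-β differed between sh*Ppargc1b* and shControl cells, by the interaction term of edgeR at an adjusted p under 0.05, for 36 of the genes named here, 29 with a negative and 7 with a positive value (sh*Ppargc1b* minus shControl, log2 scale). Genes of antiviral defence and of MHC class I with a smaller rise in the knockdown cells were *Ifi44* (-0.85), *Irf7* (-0.72), *Isg15* (-0.62), *Bst2* (-0.50), *Ifitm3* (-0.49), *Isg20* (-0.48), *Parp11* (-0.43), *Herc6* (-0.41), *Nlrc5* (-0.40), *Tap1* (-0.38), *Psmb8* (-0.36), *Psmb9* (-0.31), *Ube2l6* (-0.30) and *Adar* (-0.28). Other genes with a negative value were *Tent5c* (-0.88), *Cd69* (-0.86), *Ccl5* (-0.85), *Tnfsf4* (-0.80), *Tagap* (-0.79), *Cd40* (-0.77), *Il15ra* (-0.73), *Acod1* (-0.66), *Il18bp* (-0.63), *Cd86* (-0.57), *Tnf* (-0.46), *Hk3* (-0.45), *Daxx* (-0.43), *Npc2* (-0.33) and *Casp4* (-0.31). Positive values were found for *Inpp4a* (0.35), *Ivns1abp* (0.36), *Irs2* (0.49), *Fabp4* (0.49), *Fam43a* (0.57), *Arhgap26* (0.82) and *Mfap3l* (0.88). Of the 36, 16 kept the call in all of 18 alternatives. The call was lost in 11 of them for *Casp4* and *Isg15*, in 10 for *Adar*, *Isg20*, *Psmb9* and *Ube2l6*, and in 9 for *Herc6*, *Tnf* and *Inpp4a*. With 3 libraries a group, no test for a single outlying value was made.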

How the results depend on the processing

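The sh*Ppargc1b* count of 7760 genes stayed within 1.5 times under every other scaling, filter, test and choice of libraries, from 6823 without sh*Ppargc1b* unstimulated replicate 3 to 9891 with library totals alone, and was 1397 when a log2 change of at least 1 was also asked for (1935 of 8793 in shControl cells). The interaction count of 133 was less stable, at 84 with library totals alone, 454 with DESeq2, 525 with all genes having at least 1 count, 425 with the block for runs of library codes and 9 with a log2 difference of at least 1. Leaving out each library in turn gave 36 to 271. With library totals alone 7 named genes that were called under either scaling changed sign, to -0.14 for *Dnm1l*, -0.057 for *Esrra*, -0.079 for *Immt*, -0.18 for *Itgax*, -0.14 for *Ldha*, -0.084 for *Npc1* and -0.054 for *Trim35*, as that scaling moved the median of all genes to -0.22, and some genes called under neither, such as *Batf3* and *Adgre1*, turned too. Over 216 named genes and 19 alternatives each, 73 values in sh*Ppargc1b* cells lost a call, 36 gained one and 3984 stayed on their side of the threshold. For the interaction of 36 named genes 154 such values lost the call and 494 kept it. The labels give no replicate numbers to pair libraries by, so the block rests on the order of library codes alone, and with it 8388 genes were called in sh*Ppargc1b* cells. The cause of these shifts was not tested.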

Other observations

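The following gene groups were drawn up after values were seen, so their counts are descriptions. Of 35 genes of ribosome biogenesis, 33 were lower with IFN-β in sh*Ppargc1b* cells and 0 higher, with a median log2 change of -0.78 (-0.96 in shControl cells, where 33 were also lower). Of 21 genes of purine and pyrimidine synthesis 16 were lower and 1 higher (median -0.66), and of 21 cytosolic aminoacyl-tRNA synthetases, which load tRNAs with amino acids, 14 were lower and 5 higher (median -0.26). Of 15 tested growth factor receptor and mTOR genes 9 were lower and 4 higher (median -0.19). Of 7 tested mitochondrially encoded subunits 2 were lower and 0 higher (median -0.17), against 21.2% lower among all genes. In shControl cells 5 were lower (median -0.52), and the interaction was called for 0 of the 7. The 6 others of the 13 listed were not tested.

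A few genes were near silent before treatment. *Prm1*, which encodes a sperm protamine and lies 10.8 kb from *Socs1*, had 0, 0 and 2 counts in the unstimulated and 38, 67 and 66 counts in the treated sh*Ppargc1b* libraries. *Bmp10*, a heart growth factor, had 1, 0 and 0 counts without and 46, 34 and 48 counts with IFN-β. The predicted gene *Gm14199* had 1, 0 and 2 and then 41, 48 and 48 counts. These 3 genes were picked for near-zero counts in 1 state and many counts in the other. That their treated and untreated libraries did not overlap follows from this choice.

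Changes were also called outside coding genes, at smaller shares. Of 13078 coding genes tested, 3164 rose and 3478 fell. Of 3197 long noncoding genes 537 rose and 305 fell, 206 of the rises by at least 2-fold, and of 1295 pseudogenes 160 rose and 54 fell. In both classes the shares that rose and fell were below the 21.4% and 21.2% of all genes tested. Reads of pseudogenes and antisense genes can come from their parent or partner genes.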
